A study of Arabidopsis thaliana with 24 samples.

Results

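UDP-glycosyltransferases (UGTs) that lie outside anthocyanin synthesis were followed in Arabidopsis thaliana rosettes over 6 temperatures and 2 harvests. The set holds 46 genes of the 13350 with a probe set of their own on the array. Of these, 45 carry a symbol of UGT and 2 digits in the probe annotation and fall into 11 families by that number. AT2G16890 is the other member. It has no such symbol in the probe annotation, so it was placed in no family here. It was added for its response in earlier results of these same arrays, so its values are a description. UGT78D1 and UGT78D2, whose products work on flavonols and anthocyanins, were left out. Each member had 1 probe set that named no other gene.

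The samples are rosettes of Columbia-0 (Col-0), the usual laboratory accession, with no mutation or transgene in any group. Plants grew on soil at 20 °C under 12 h of light a day, and at 4 weeks were moved, 4 h after the lights came on, to 17, 14, 12, 10 or 8 °C or, for the controls, to 20 °C. They were frozen in liquid nitrogen 78 h or 6 h afterwards, in both cases 10 h into the light period, with 3 rosettes pooled in a sample. There were 12 groups of 2 samples, marked A and B, and each sample was measured on a one-colour array. The labels speak of 5 or more replicate samples as typical, while 2 arrays per group were analysed here, so a sample on an array may be a pool. Whether A and B were separate growths is not stated either, so p-values measure the spread between these samples, which may be technical. All groups, controls included, were moved at the same hour, and the 20 °C plants of the same harvest are the controls throughout.

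UGTs transfer a sugar, most often glucose, from a UDP-sugar to a small acceptor such as a hormone, a phenolic compound or a sterol. The sugar makes the acceptor more soluble and, for hormones, usually inactive, and many conjugates are stored in the vacuole. Members of 1 family can act on unrelated acceptors, so the family number says little about the substrate.

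Signals are on a log2 scale, so a step of 1 is a doubling, and the level of a probe set cannot be set against that of another. Array medians lay between 7.15 and 7.25. Members averaged from 4.69 (UGT73C2) to 10.84 (UGT74B1) over the 24 arrays, and 14 of the 46 were among the dimmest 25% of probe sets. The response to temperature was summarised as a slope, the log2 change per 10 °C of cooling across the 6 temperatures of a harvest. A slope was called at an adjusted p below 0.05 in limma over all 22746 probe sets tested. The difference between the A and the B array recurred from group to group. The value with the letter as a block is therefore given where it changes the call of a member. Comparisons with 20 °C within a harvest share the control arrays. Values on single arrays are listed from 20 to 17, 14, 12, 10 and 8 °C. Precision is limited throughout by the 2 arrays of each group. The 7 green leaf markers measured averaged 10.58 to 14.43. At 78 h 6 of them fell with cooling and CHLI2 rose. At 6 h HPR fell, and LHCB4.2 (slope 0.32 ± 0.12) passed with the block (adjusted p = 0.0163) and not without it (0.0991). Among the root markers, PYK10 read 7.09 to 10.00 over the arrays and fell with cooling at 78 h (slope -1.54 ± 0.21, adjusted p = 0.000228). EXPA7 and EXPA18 averaged 5.97 and 5.56 and were not called at either harvest. Their 78 h slopes were -0.07 for 1 of them and 0.13 for the other. No flower or seed marker had a named probe set. In whole rosettes, fewer cells of a type and less RNA per cell cannot be told apart, and the part of these shifts in the slopes below was not tested.

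A minority of the UGT genes rose or fell with cooling. At 78 h, 4 of 46 members rose with cooling (8.70%, against 5.31% of all probe sets) and 3 fell (6.52%, against 6.78%). At 6 h, 8 rose (17.4%, against 4.90%) and 3 fell (6.52%, against 6.15%). The share that fell was thus near that of all probe sets at both harvests in this fit, which is without the block. Without AT2G16890, 3 of 45 rose and 3 fell at 78 h, and 7 rose and 3 fell at 6 h. The median slope over the members was 0.03 at 78 h and 0.06 at 6 h, beside 0.017 and 0.0097 over all probe sets.

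The letter as a block raised these counts for members and for all probe sets, though not in the same proportion. With the block, 5 of 46 rose (10.9%, against 14.4%) and 6 fell (13%, against 15.1%) at 78 h. At 6 h, 11 rose (23.9%, against 12.2%) and 4 fell (8.7%, against 14.7%). The share that rose at 78 h was then below that of all probe sets, as was the share that fell at each harvest. The slope itself differed between the harvests, 78 h minus 6 h, at 3 members: 1 higher (against 1.41%) and 2 lower (against 1.15%). With the block it differed at 9, of which 2 were higher (against 7.87%) and 7 lower (against 6.88%). The sign of this difference was positive at 13 members and negative at 33, with a median of -0.08. Over all probe sets 50.8% were positive, with a median of 0.0032. This split of signs was not tested.

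**Figure D1:**
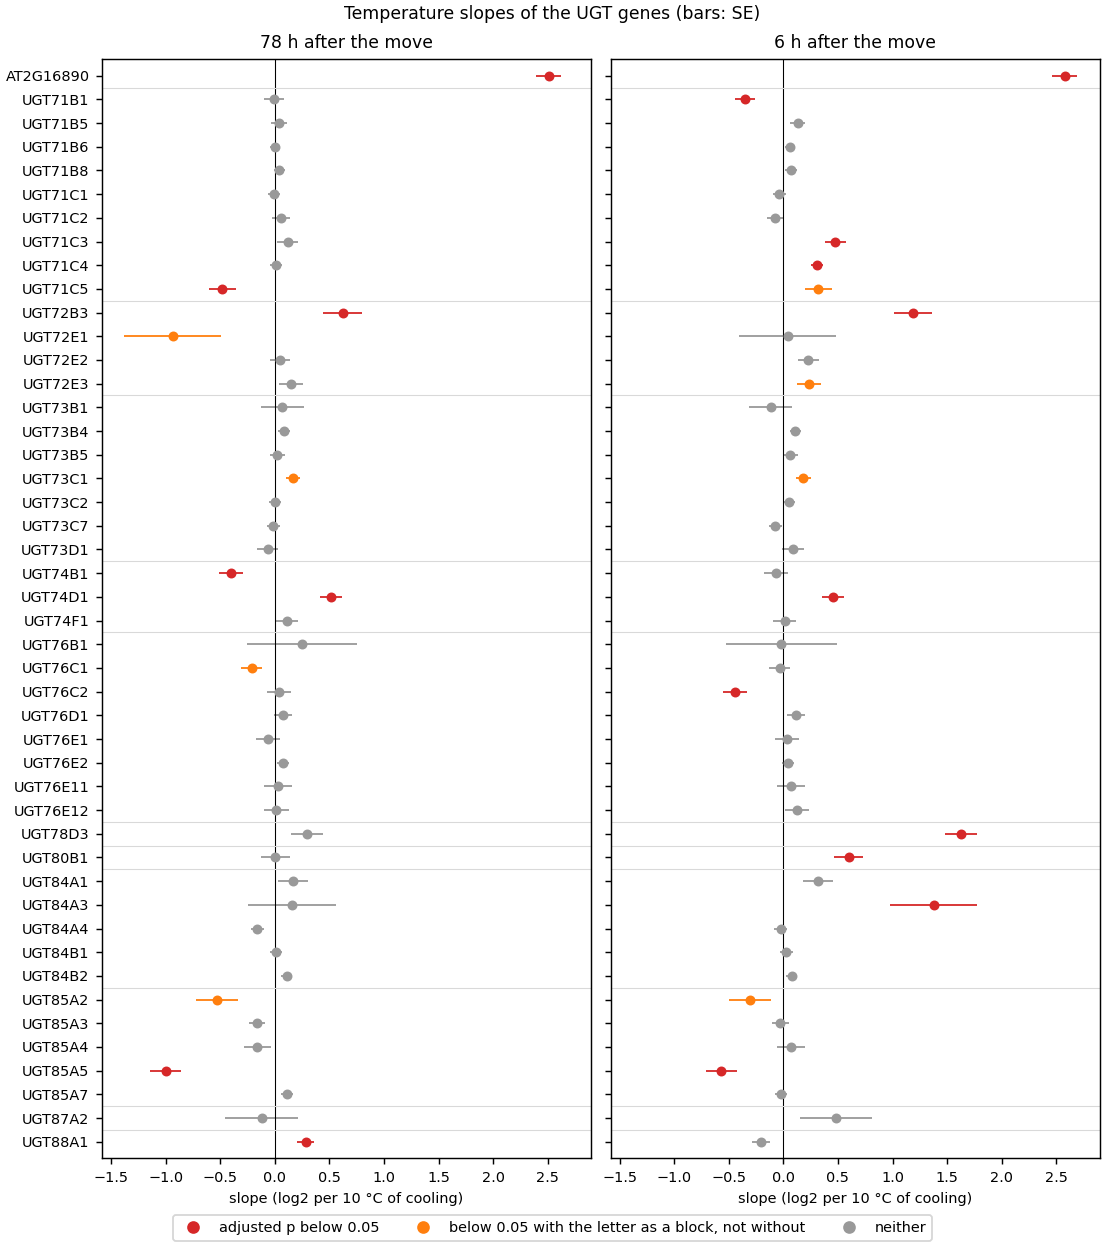
Slope of each of the 46 UGT genes in log2 per 10 °C of cooling, with the 78 h harvest on the left and the 6 h harvest on the right. Bars are standard errors of the fit without the block, grey lines separate families, and colour marks the call. Most points lie near 0, and AT2G16890 stands at 2.51 and 2.58.

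The 2 ends of the temperature range gave smaller counts. Between 8 °C and 20 °C at 78 h, 1 member was higher (against 2.92% of all probe sets) and 1 was lower (against 4.44%). At 6 h, 6 were higher (against 2.84%) and 0 were lower (against 3.20%). In either direction 14 members had an unadjusted p below 0.05 in limma, a threshold at which the share of all probe sets was not counted. With the block, 4 were higher (against 10.3%) and 5 lower (against 12.0%) at 78 h, and 11 were higher (against 8.98%) and 2 lower (against 9.87%) at 6 h.

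AT2G16890 is among the higher members in each of these counts and was added for its response. Without it, 0 of 45 were higher and 1 was lower at 78 h, and 5 were higher and 0 lower at 6 h. With the block these became 3 higher and 5 lower at 78 h, and 10 higher and 2 lower at 6 h.

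The block added calls for 8 °C against 20 °C that the fit without it did not make. At 78 h it added UGT74D1 (0.48 on the log2 scale, adjusted p = 0.0595 without and 0.0195 with the block) and UGT88A1 (0.38, 0.0642 and 0.0246 in the same order), as well as UGT72B3. On the lower side at 78 h it added UGT71C5 (-0.57, 0.0631 and 0.000675), UGT72E1 (-1.07, 0.408 and 0.00969), UGT74B1 (-0.46, 0.0852 and 0.0286) and UGT85A2 (-0.72, 0.143 and 0.00214). At 6 h it added UGT71C5 (0.40, 0.2502 and 0.0104), UGT72E3 (0.25, 0.478 and 0.0362), UGT73C1 (0.23, 0.200 and 0.0256), UGT74D1 (0.48, 0.0663 and 0.0223) and UGT84A3. Those it added as lower at 6 h were UGT76C2 (-0.30, 0.360 and 0.0376) and UGT85A5 (-0.66, 0.0771 and 0.00446).

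The mildest step, 17 °C against 20 °C, gave no call. In limma 0 of 46 members passed at 78 h (against 0% of all probe sets, and 0.0132% with the block), where 1 had an unadjusted p below 0.05. At 6 h 0 passed as well (against 0%, and 0.163% with the block), with 2 below 0.05 unadjusted. With the block the members called were again 0 at both harvests. Time alone gave no call either: between the 78 h and the 6 h rosettes at 20 °C, 0 members were called with or without the block (against 0% in each fit), and 0 had an unadjusted p below 0.05.

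**Figure D2:**
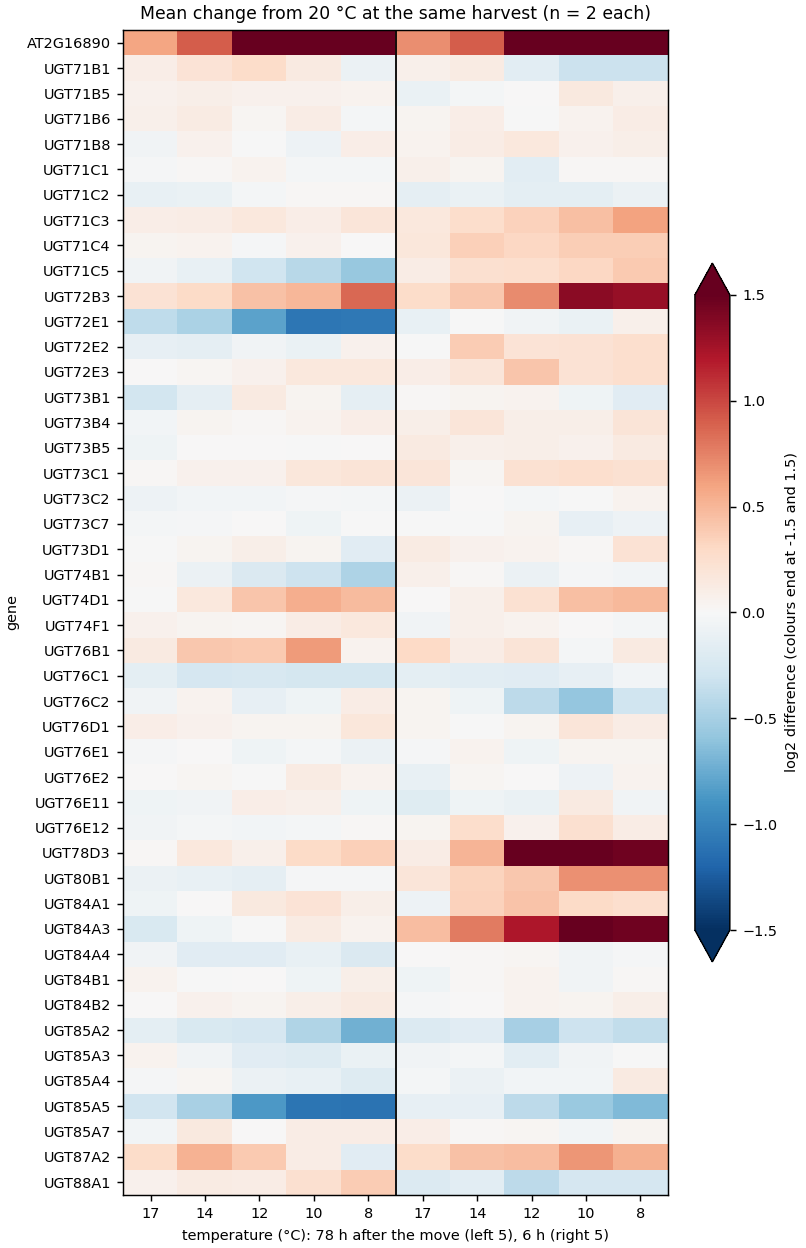
Mean log2 change of each UGT gene from the 20 °C arrays of the same harvest (n = 2 arrays per group), with the 5 cooler temperatures of 78 h on the left and of 6 h on the right. Red is higher and blue lower than at 20 °C, and colours end at -1.5 and 1.5. Rows with strong colour are few, and the rows of UGT78D3, UGT84A3 and UGT71C5 differ in colour between the harvests.

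AT2G16890 had the steepest slopes in the set at both harvests. At 78 h its signal was 6.50, 7.14, 7.19, 8.20, 9.29 and 9.40 on the A arrays and 6.55, 7.08, 7.66, 8.23, 8.97 and 9.39 on the B arrays. At 6 h it was 6.53, 7.36, 7.58, 8.40, 9.40 and 9.70 on A and 6.64, 7.21, 7.40, 8.55, 9.45 and 9.21 on B. Every cooler array was above both 20 °C arrays of its harvest, already at 17 °C. The signal at 8 °C was 7.33-fold that at 20 °C after 78 h and 7.31-fold after 6 h. Slopes were 2.51 ± 0.11 at 78 h and 2.58 ± 0.11 at 6 h (SE), a difference of -0.07 ± 0.16. As this response was known when the gene was chosen, it supports nothing about the rest of the set.

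UGT72B3 also rose at both harvests, less steeply. Its family holds enzymes of phenolic conjugation, among them the close relative GT72B1, which acts on chlorinated phenols. At 78 h UGT72B3 read 7.09, 7.32, 7.38, 7.60, 7.79 and 7.92 on A and 6.82, 7.03, 7.11, 7.19, 7.11 and 7.71 on B, from 20 down to 8 °C. The 6 h arrays gave 6.91, 7.35, 7.36, 7.81, 8.49 and 8.39 on A and 6.85, 6.97, 7.20, 7.35, 7.97 and 7.98 on B. All cooler arrays of 6 h were above both 20 °C arrays, while at 78 h the groups at 17 and 20 °C overlapped. Its slope at 78 h was 0.62 ± 0.18 (adjusted p = 0.0334), and that at 6 h 1.19 ± 0.18 (adjusted p = 0.000497).

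The smaller slope of UGT72B3 at the later harvest did not pass as a difference (-0.57 ± 0.25, adjusted p = 0.356), but did with the block (0.00323). At 8 °C after 6 h the signal was 2.48-fold that at 20 °C (adjusted p = 0.00596), and that after 78 h was 1.81-fold (adjusted p = 0.0525, and 7.3e-05 with the block). Its call at 78 h was lost without any 1 of 6 arrays of that harvest, namely A or B at 20 °C, A at 10 °C, A or B at 8 °C, or B at 17 °C (adjusted p = 0.0617 to 0.162). The comparison of 8 °C with 20 °C after 6 h was lost without the 8 °C A array (adjusted p = 0.0771) or the 20 °C B array (0.0537).

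UGT78D3, a flavonol arabinosyltransferase, rose at 6 h, and its smaller positive slope at 78 h did not pass. The 78 h arrays gave 5.23, 5.05, 5.33, 5.32, 5.63 and 5.69 on A and 5.14, 5.35, 5.35, 5.19, 5.31 and 5.40 on B. Values at 6 h were 5.10, 5.24, 5.94, 6.77, 6.86 and 6.97 on A and 5.29, 5.38, 5.48, 6.68, 7.26 and 6.35 on B. The largest step lay between 14 and 12 °C on both sets of 6 h arrays, and from 14 °C down every array was above both at 20 °C. The slope at 78 h was 0.30 ± 0.14 (adjusted p = 0.237), and that at 6 h 1.63 ± 0.14 (adjusted p = 6.03e-06).

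The difference between the slopes of UGT78D3 passed the test (-1.33 ± 0.20, adjusted p = 0.00377, and 0.000405 with the block). It was of the same size on the B arrays alone (-1.32, adjusted p = 0.124), where the call was lost. At 8 °C after 6 h the signal was 2.76-fold that at 20 °C (adjusted p = 0.000664). Of the 2 family relatives left out of the set, UGT78D2 had slopes of 1.40 at 78 h and 1.37 at 6 h, both called, and UGT78D1 had slopes of 0.28 and -0.07, neither called.

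UGT84A3, which makes glucose esters of hydroxycinnamates, rose at 6 h, with a wide gap between the letters. Values at 78 h were 7.69, 7.60, 7.69, 7.87, 8.00 and 8.06 on A and 7.39, 7.01, 7.26, 7.18, 7.33 and 7.11 on B. At 6 h it read 7.73, 8.37, 8.95, 9.25, 9.48 and 9.31 on A and 7.10, 7.39, 7.45, 8.01, 8.71 and 8.44 on B. The A array was above the B array in every group. At 12, 10 and 8 °C after 6 h, both arrays were above both at 20 °C.

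The slope of UGT84A3 at 78 h was 0.16 ± 0.40 (adjusted p = 0.888), and that at 6 h 1.38 ± 0.40 (adjusted p = 0.0392, and 7.94e-06 with the block). With the block the slopes differed between the harvests (-1.22, adjusted p = 0.00138), and without it they did not pass (0.393). At 8 °C after 6 h the change from 20 °C was 1.46 on the log2 scale (adjusted p = 0.179, and 0.000213 with the block). The 6 h call without the block was lost without any 1 of 7 arrays, the A arrays at 20, 10 and 8 °C and the B arrays at 20 and 17 °C of 6 h, and A or B at 20 °C of 78 h (adjusted p = 0.0508 to 0.212).

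**Figure D3:**
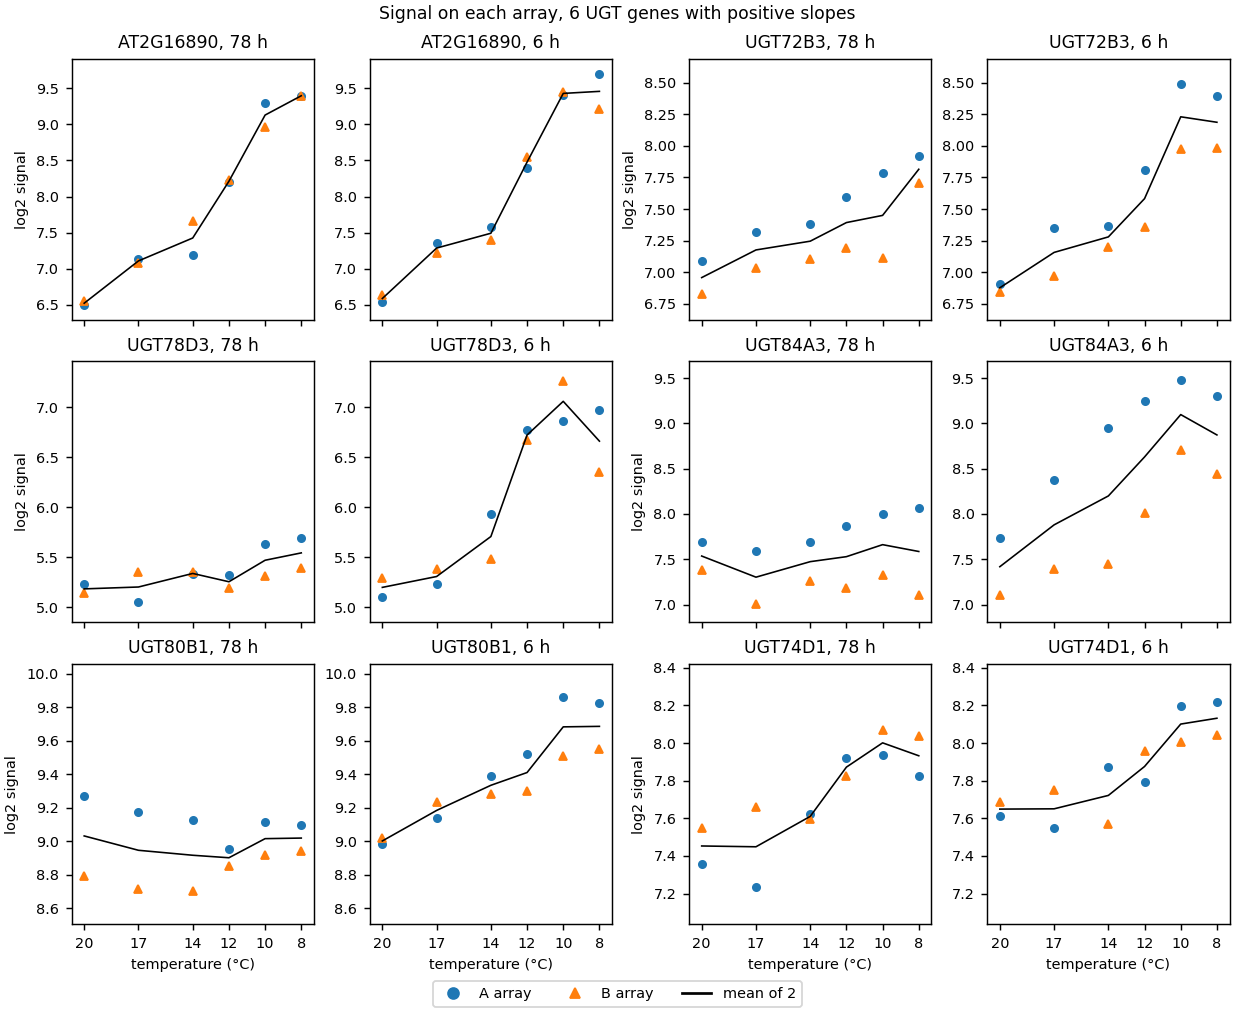
Log2 signal on each array against temperature for AT2G16890, UGT72B3, UGT78D3, UGT84A3, UGT80B1 and UGT74D1, with 78 h to the left of 6 h for each gene on a common axis, and temperature falling to the right. Circles are A arrays, triangles B arrays, and lines the mean of 2. UGT78D3 and UGT84A3 climb at 6 h and stay within 5.05 to 5.69 and 7.01 to 8.06 at 78 h.

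UGT80B1, a sterol glucosyltransferase active in the seed coat, rose at 6 h by a smaller step. At 78 h it read 9.27, 9.18, 9.13, 8.95, 9.12 and 9.10 on A and 8.80, 8.72, 8.70, 8.85, 8.92 and 8.94 on B. The 6 h arrays gave 8.99, 9.14, 9.39, 9.52, 9.86 and 9.82 on A and 9.02, 9.23, 9.28, 9.30, 9.51 and 9.55 on B. All cooler arrays of 6 h were above both at 20 °C, whereas at 78 h the A array was above the B array in every group. Its slope at 78 h was 0.00 ± 0.13 (adjusted p = 0.993), and that at 6 h 0.60 ± 0.13 (adjusted p = 0.00927).

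The difference in the slopes of UGT80B1 was -0.60 (adjusted p = 0.142, and 0.00424 with the block), and it passed on the A arrays alone too (-0.94, adjusted p = 0.00101). The 6 h slope was lost without the 8 °C A array (adjusted p = 0.0569). Its 8 °C signal after 6 h was 0.68 above that at 20 °C on the log2 scale (adjusted p = 0.0481), a call lost in 16 of the 24 omissions of an array (adjusted p = 0.0553 to 0.310, highest without the 8 °C A array of 6 h).

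UGT74D1, which glucosylates auxins, rose at both harvests. The 78 h arrays gave 7.36, 7.24, 7.62, 7.92, 7.94 and 7.83 on A and 7.55, 7.66, 7.60, 7.83, 8.07 and 8.04 on B. Values at 6 h were 7.61, 7.55, 7.88, 7.79, 8.20 and 8.22 on A and 7.69, 7.75, 7.57, 7.96, 8.01 and 8.04 on B. At 12, 10 and 8 °C all arrays were above both at 20 °C, and the 17 °C arrays overlapped with them, at each harvest. The slope at 78 h was 0.51 ± 0.10 (adjusted p = 0.00396), and that at 6 h 0.46 ± 0.10 (adjusted p = 0.00892), with a difference of 0.06 ± 0.14 (adjusted p = 0.957). The 6 h call was lost without the A array at 20 °C (adjusted p = 0.0529) or at 8 °C (0.0525). UGT84B1, which also acts on auxin, had slopes of 0.01 at 78 h and 0.03 at 6 h and was not called. UGT74F1, which acts on salicylic acid, had slopes of 0.11 and 0.01 at these harvests and was not called either.

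UGT85A5 fell at both harvests, with the lowest slope of the 46 members at each. Values at 78 h were 7.69, 7.59, 7.18, 6.74, 6.46 and 6.52 on A and 7.40, 6.92, 6.95, 6.64, 6.44 and 6.36 on B. At 6 h it read 7.45, 7.23, 7.36, 7.03, 6.70 and 6.54 on A and 7.08, 7.06, 6.93, 6.71, 6.72 and 6.68 on B. From 14 °C down at 78 h, and from 12 °C down at 6 h, all arrays were below both at 20 °C. Its slope at 78 h was -1.001 ± 0.14 (adjusted p = 0.000353), and that at 6 h -0.57 ± 0.14 (adjusted p = 0.0183), and these did not differ past the threshold (-0.43 ± 0.20, adjusted p = 0.404).

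At 8 °C after 78 h the signal of UGT85A5 was 0.464 times that at 20 °C (adjusted p = 0.00351), a call lost without the 20 °C A array of 78 h (adjusted p = 0.0549). The 6 h slope was lost without the A array at 20 °C (adjusted p = 0.133) or at 8 °C (0.0789). Its neighbour UGT85A2 had negative slopes that passed with the block and not without it. At 78 h UGT85A2 read 8.53, 8.53, 8.51, 8.52, 8.21 and 7.89 on A and 8.61, 8.31, 8.17, 8.10, 8.02 and 7.81 on B. Its slope was -0.53 ± 0.19 at 78 h (adjusted p = 0.0953, and 0.00109 with the block) and -0.31 ± 0.19 at 6 h (0.395, and 0.0357 with the block). The 78 h slope of UGT85A2 also passed with that harvest fitted alone (adjusted p = 0.0168) and on each letter alone (0.0156 on A and 0.00641 on B). UGT85A3, UGT85A4 and UGT85A7 had slopes between -0.16 and 0.11 over both harvests, and none was called.

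UGT71C5, one of the enzymes that conjugate abscisic acid with glucose, fell at 78 h and had a positive slope at 6 h. At 78 h it read 8.55, 8.37, 8.27, 8.11, 8.00 and 7.92 on A and 8.22, 8.28, 8.28, 8.06, 7.94 and 7.70 on B. The 6 h arrays gave 8.29, 8.43, 8.54, 8.65, 8.68 and 8.74 on A and 8.07, 8.15, 8.31, 8.22, 8.30 and 8.41 on B. At 12, 10 and 8 °C all 78 h arrays were below both at 20 °C, while at 10 and 8 °C all 6 h arrays were above both. The slope at 78 h was -0.48 ± 0.12 (adjusted p = 0.0194), and that at 6 h 0.32 ± 0.12 (adjusted p = 0.129, 0.00313 with the block, and 0.000664 on the A arrays alone).

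The slope difference of UGT71C5 passed the test (-0.80 ± 0.17, adjusted p = 0.0266, and 0.000116 with the block). It was lost without any 1 of 7 arrays, which were A at 8 °C and B at 20 or 17 °C of 6 h, and A at 20 or 17 °C and B at 10 or 8 °C of 78 h (adjusted p = 0.0505 to 0.117). The 78 h slope was lost without the A array at 20 °C (adjusted p = 0.177) or the B array at 8 °C (0.0956). UGT71B6, which also glucosylates abscisic acid, had slopes of 0.00 and 0.06 at 78 h and 6 h and was not called, on a dim probe set with a mean of 5.06.

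UGT71C4 and UGT71C3 lie next to UGT71C5 in the TAIR10.1 annotation and rose at 6 h. UGT71C4 read 9.86, 10.03, 10.28, 10.15, 10.22 and 10.22 on A and 9.79, 9.96, 10.08, 10.11, 10.17 and 10.17 on B at that harvest. UGT71C3 read 5.12, 5.34, 5.38, 5.49, 5.64 and 5.73 on A and 5.07, 5.17, 5.34, 5.39, 5.45 and 5.67 on B. For both genes every cooler array was above both at 20 °C. The slope at 6 h was 0.31 ± 0.05 for UGT71C4 (adjusted p = 0.00193) and 0.47 ± 0.10 for UGT71C3 (adjusted p = 0.00452). At 78 h the slopes were 0.01 (adjusted p = 0.971) and 0.12 (adjusted p = 0.546).

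The slope difference of UGT71C4 was -0.30 (adjusted p = 0.0587) and passed with the block (0.0148) and with cyclic loess (0.0289), and those of UGT71C3 did not pass (-0.36, adjusted p = 0.243). After 6 h at 8 °C, UGT71C3 was higher than at 20 °C by 0.60 on the log2 scale (adjusted p = 0.0150) and UGT71C4 by 0.37 (adjusted p = 0.00978). The first call was lost without the 20 °C A or B array or the 8 °C A array of 6 h (adjusted p = 0.0621 to 0.110), and the second without the 8 °C A array (0.0898) or the 20 °C B array (0.0974). UGT71C3 is among the dimmest 25% of probe sets. The gene models of UGT71C4 (bases 2225759 to 2227608 of chromosome 1) and UGT71C3 (2227594 to 2229357) overlap only at their ends. Whether either probe set reaches the shared stretch was not tested.

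**Figure D4:**
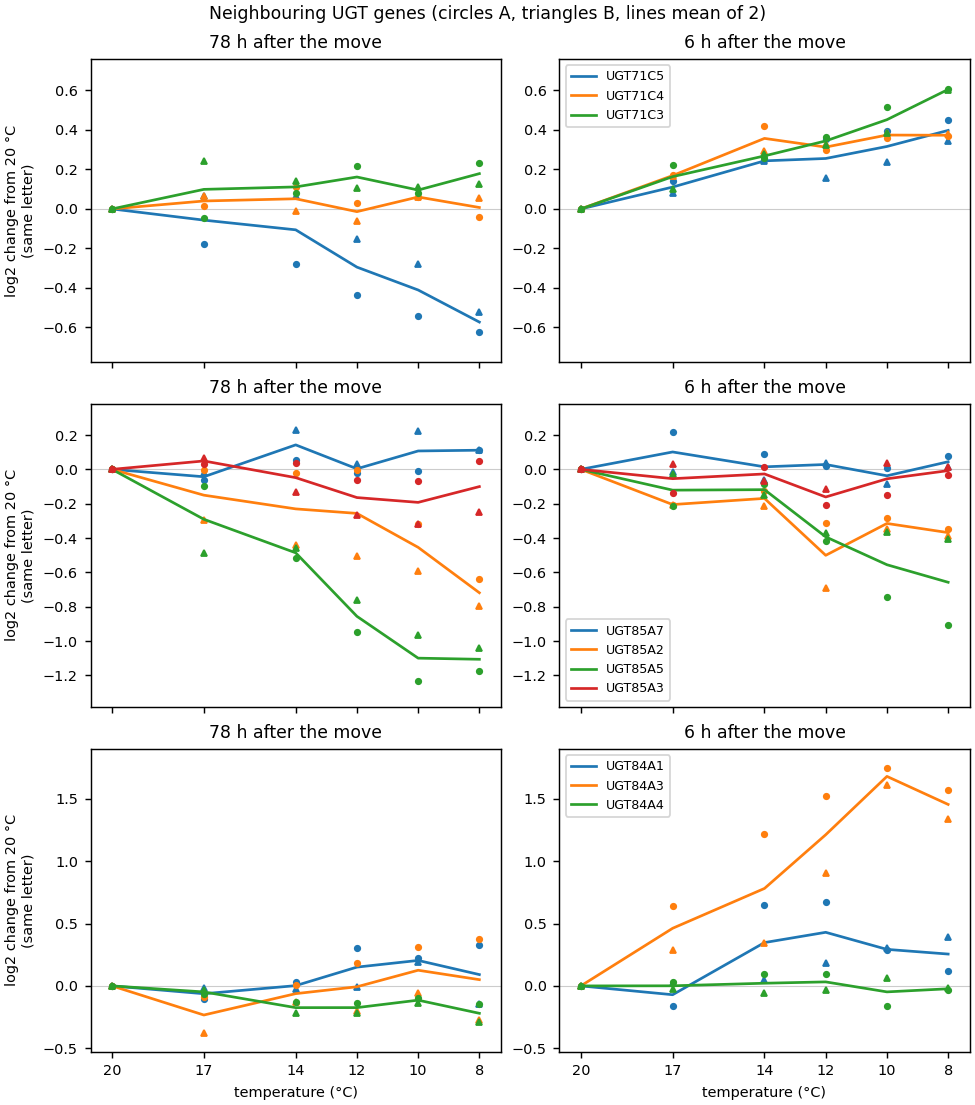
Log2 change from the 20 °C array of the same letter for UGT genes that lie side by side in the TAIR10.1 annotation, with 78 h on the left and 6 h on the right. Rows are UGT71C5, UGT71C4 and UGT71C3, then UGT85A7, UGT85A2, UGT85A5 and UGT85A3, then UGT84A1, UGT84A3 and UGT84A4. Circles are A, triangles B and lines the mean of 2. In each row, 1 gene or more stays near 0 at a harvest where a neighbour does not.

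Neighbouring genes were common in the set. By TAIR10.1 gene order, 29 members fell into 12 clusters with at most 2 genes between neighbours, the largest of 4 genes. In 7 clusters no member had a called slope without the block, in 4 some members did, and in 1, that of UGT71C5, UGT71C4 and UGT71C3, every member did. Over all probe sets 5.31% rose and 6.78% fell at 78 h, and 4.90% rose and 6.15% fell at 6 h. The clusters are small, so no pattern is read from their counts. Differences between neighbours were not tested. In the cluster of 4 UGT85A5 fell and UGT85A7 and UGT85A3 were not called. In another, UGT84A3 rose at 6 h, while UGT84A1 had a slope of 0.32 ± 0.13 (adjusted p = 0.173) and UGT84A4 a slope of -0.03 (adjusted p = 0.874) at that harvest. Of UGT71B1, UGT71B6 and UGT71B8, only UGT71B1 was called, and of UGT76C1 and UGT76C2 only UGT76C2 was called without the block. Cross-hybridisation between such relatives was not tested. UGT73B4 and UGT73B5, whose gene models overlap, are uncertain for that reason and were not called.

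UGT72E1, which acts on lignin building blocks, had the second lowest slope at 78 h but a wide gap between the letters. The 78 h arrays gave 8.86, 8.58, 8.43, 8.16, 8.02 and 7.86 on A and 8.56, 8.08, 8.05, 7.65, 7.23 and 7.41 on B. Values at 6 h were 8.63, 8.76, 8.70, 8.75, 8.84 and 8.99 on A and 7.75, 7.40, 7.67, 7.54, 7.36 and 7.54 on B. The 6 h arrays of the letters did not overlap, and over all groups B was below A by 0.86. Its slope at 78 h was -0.94 ± 0.44 (adjusted p = 0.218, and 0.00172 with the block), and its difference from that at 6 h was -0.98 ± 0.63 (adjusted p = 0.623, and 0.0248 with the block). Each letter alone gave a negative slope there, -0.83 on A and -1.04 on B, and at 6 h the slopes were 0.24 and -0.16.

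The relatives of UGT72E1 with a similar role, UGT72E2 and UGT72E3, had positive slopes. UGT72E3 had a slope of 0.23 ± 0.11 at 6 h (adjusted p = 0.221, and 0.00518 with the block) and UGT72E2 one of 0.23 ± 0.09 (adjusted p = 0.153, and 0.0515 with the block). Neither was called at 78 h, where the slopes were 0.15 and 0.05 (UGT72E3 first).

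UGT76C2, a cytokinin N-glucosyltransferase, read 8.13, 8.27, 8.11, 7.68, 7.73 and 7.97 on A and 8.42, 8.37, 8.31, 8.09, 7.67 and 7.99 on B at 6 h, where it fell with cooling. All arrays at 12, 10 and 8 °C were below both at 20 °C, and the lowest mean was at 10 °C. Its slope at 78 h was 0.04 ± 0.11 (adjusted p = 0.905), and that at 6 h -0.44 ± 0.11 (adjusted p = 0.0177), a difference of 0.48 (adjusted p = 0.152, and 0.00343 with the block). The 6 h call was lost without the 8 °C A array (adjusted p = 0.0618) or the 20 °C B array (0.153).

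UGT76C1, which has the same role, had a slope of -0.21 ± 0.10 at 78 h (adjusted p = 0.201, 0.0376 with the block, and 0.0159 on the A arrays alone), and of -0.03 at 6 h. UGT73C1, which adds glucose to the side chain of cytokinins, had small positive slopes of 0.17 at 78 h and 0.18 at 6 h, called with the block (adjusted p = 0.0143 and 0.00914) and not without it (0.126 and 0.0971). It was among the dimmest 25% of probe sets, with a mean of 5.01.

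UGT74B1, which adds the glucose in glucosinolate synthesis, fell at 78 h. It read 10.71, 10.85, 10.64, 10.66, 10.49 and 10.38 on A and 11.13, 11.03, 11.03, 10.76, 10.74 and 10.53 on B at that harvest. Both 8 °C arrays were below both at 20 °C, and the groups at 17, 14, 12 and 10 °C overlapped with the controls. The slope at 78 h was -0.40 ± 0.11 (adjusted p = 0.0249), and that at 6 h -0.07 ± 0.11 (adjusted p = 0.807), and the difference did not pass (-0.33, adjusted p = 0.382). The 78 h call was lost without the A array at 10 or 8 °C or the B array at 20 or 17 °C (adjusted p = 0.0594 to 0.200).

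UGT88A1 rose slightly at 78 h, and its negative slope at 6 h did not pass. Values at 78 h were 10.95, 10.89, 10.94, 10.83, 10.92 and 11.08 on A and 10.61, 10.81, 10.86, 10.96, 11.12 and 11.23 on B. At 6 h it read 10.61, 10.39, 10.32, 10.16, 10.44 and 10.32 on A and 10.59, 10.40, 10.57, 10.27, 10.26 and 10.37 on B. Every cooler array of 6 h was below both at 20 °C, while at 78 h only the 8 °C group was clear of the controls, on the upper side. Its slope at 78 h was 0.28 ± 0.08 (adjusted p = 0.0370), and that at 6 h -0.21 ± 0.08 (adjusted p = 0.138), and they differed (0.49 ± 0.12, adjusted p = 0.0394, and 0.00907 with the block).

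The 78 h slope of UGT88A1 was 0.07 on the A arrays alone and 0.50 on the B arrays alone. That call was lost without any 1 of 7 arrays of 78 h, the A arrays at 17 and 8 °C and the B arrays at 20, 17, 12, 10 and 8 °C (adjusted p = 0.0560 to 0.276). The difference was lost in 16 of 24 omissions (adjusted p = 0.0517 to 0.121, highest without the 20 °C B array of 78 h).

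**Figure D5:**
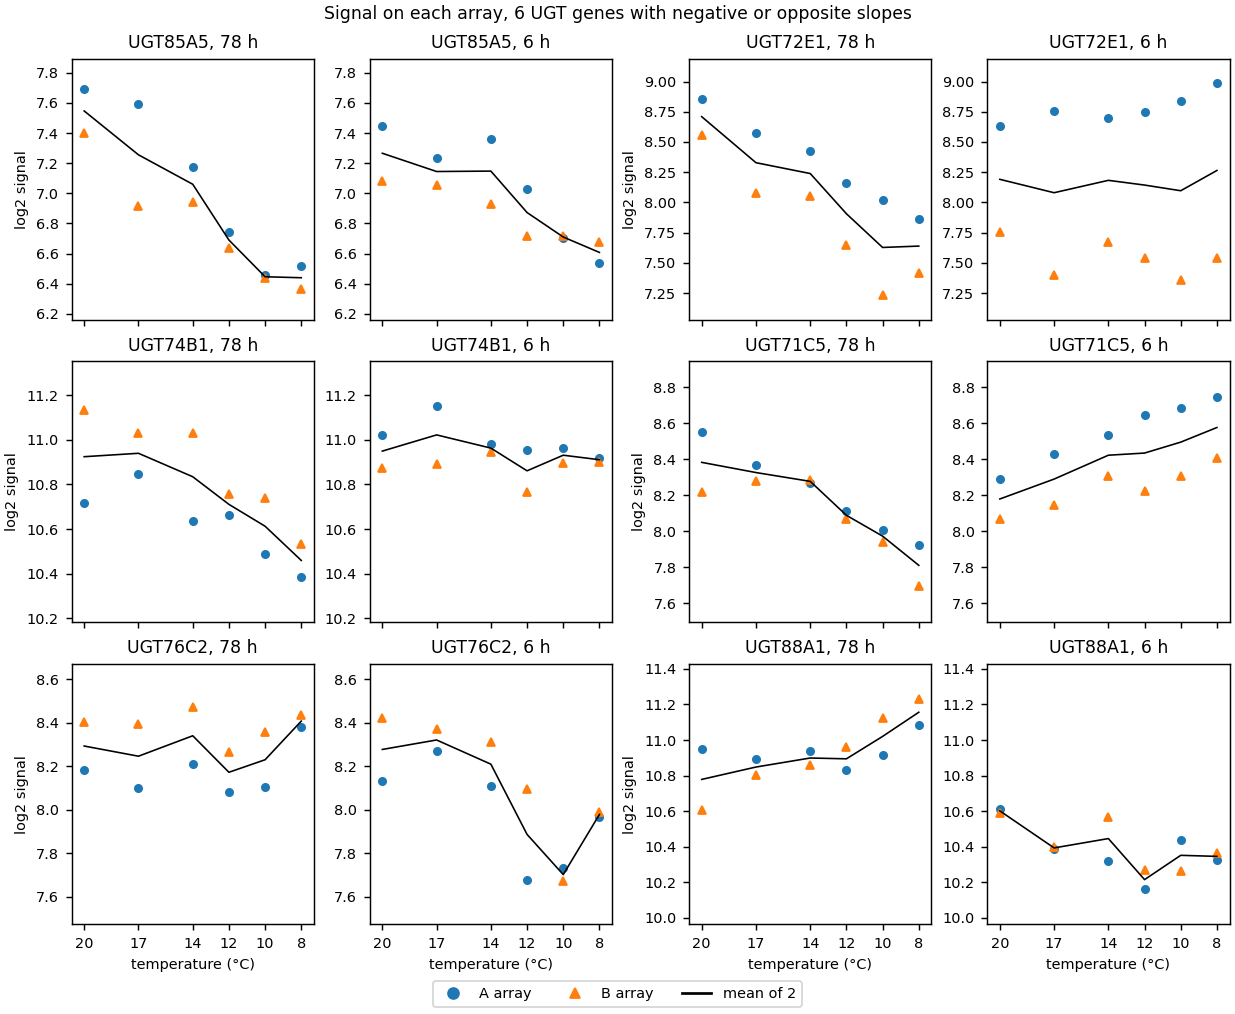
Log2 signal on each array against temperature for UGT85A5, UGT72E1, UGT74B1, UGT71C5, UGT76C2 and UGT88A1, with 78 h to the left of 6 h for each gene on a common axis, and temperature falling to the right. Circles are A arrays, triangles B arrays, and lines the mean of 2. The lines of UGT71C5 run down at 78 h and up at 6 h, and the letters of UGT72E1 stand apart at 6 h.

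UGT71B1 fell at 6 h. It read 9.63, 9.73, 9.81, 9.43, 9.33 and 9.17 on A and 9.39, 9.44, 9.45, 9.27, 9.05 and 9.20 on B, with both arrays at 10 and 8 °C below both at 20 °C. The slope at 78 h was -0.01 ± 0.09 (adjusted p = 0.987), and that at 6 h -0.35 ± 0.09 (adjusted p = 0.0252), with no difference past the threshold (0.34, adjusted p = 0.251). The 6 h call was lost without any 1 of 5 arrays of that harvest, A at 20, 17 or 8 °C and B at 10 or 8 °C (adjusted p = 0.0556 to 0.167).

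By family number, calls came from several families. Beside them, 5.31% of all probe sets rose and 6.78% fell at 78 h, and 4.90% rose and 6.15% fell at 6 h. Families are small, so no pattern among them is read from these counts. Of the 9 UGT71 genes, 1 fell at 78 h, and 2 rose and 1 fell at 6 h. Of the 8 UGT76 genes, 0 were called at 78 h and 1 fell at 6 h in limma, with 1 below an unadjusted p of 0.05 at each harvest. Of the 7 UGT73 genes, 0 were called at either harvest without the block, 1 had an unadjusted p below 0.05 at each, and 1, UGT73C1, was called with the block. The 5 UGT84 genes gave 1 rise, at 6 h, and the 5 UGT85 genes 1 fall at each harvest. Among the 4 UGT72 genes 1 rose at each harvest, and among the 3 UGT74 genes 1 rose at both harvests and 1 fell at 78 h. UGT78, UGT80, UGT87 and UGT88 were represented by 1 gene each.

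The other 27 members passed no slope test and no test of the slope difference, with or without the block. Their slopes ran from -0.16 to 0.25 at 78 h and from -0.12 to 0.48 at 6 h. The smallest were those of UGT84B1 and UGT71C1, whose absolute slopes stayed within 0.027 and 0.036 at both harvests. The upper ends were UGT76B1 at 78 h (0.25 ± 0.51), which conjugates salicylic acid and other immune signals, and UGT87A2 at 6 h (0.48 ± 0.33), a regulator of flowering time. Both had arrays of the 2 letters far apart at 6 h: UGT76B1 read 6.17 to 7.02 on A and 4.89 to 5.22 on B, and UGT87A2 read 9.26 to 10.20 on A and 8.70 to 9.17 on B. The errors of these slopes leave room for changes of the size called in other members.

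Gene groups that act beside UGTs were read from lists of named genes. Glutathione transferases conjugate foreign or reactive compounds with glutathione, and of 13, 1 rose and 2 fell at 78 h and 0 rose and 2 fell at 6 h, with medians of -0.03 and 0.02. GSTU18 fell at both harvests (-0.92 and -0.96 log2 per 10 °C, 78 h first). Cytochrome P450s supply hydroxyl groups that can take a sugar. The 23 listed are mostly CYP71B genes and do not stand for the whole family. Of these 23, 0 rose and 4 fell at each harvest, with medians of 0.01 and -0.02. CYP71B24 (-1.02 and -1.17) and CYP71B28 (-0.70 and -0.73) fell at both.

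Beta-glucosidases remove glucose from such conjugates. Of 20, 2 rose and 3 fell at 78 h and 1 rose and 2 fell at 6 h, with medians of -0.04 and 0.01. BGLU40 fell at both harvests (-0.73 and -0.96), and BGLU44 fell at 78 h (-0.29) and rose at 6 h (0.42). USP, which makes UDP-sugars, was the sole gene of the sugar nucleotide list with a named probe set, and had slopes of -0.19 and -0.03 that did not pass (adjusted p = 0.0993 and 0.874; 0.0285 with the block at 78 h). BCAT4, an early enzyme of glucosinolate synthesis from methionine, had slopes of -0.57 and -0.06 that did not pass either (adjusted p = 0.0847 and 0.925; 0.00191 with the block at 78 h). With the block, glutathione transferases gave 2 rises and 3 falls at each harvest. Cytochrome P450s gave 1 rise and 4 falls at 78 h and 1 rise and 5 falls at 6 h, and beta-glucosidases 3 rises and 5 falls at 78 h and 3 of each at 6 h. The counts without the block read against 5.31% of all probe sets rising and 6.78% falling at 78 h, and 4.90% rising and 6.15% falling at 6 h. Those with the block read against 14.4% rising and 15.1% falling at 78 h, and 12.2% rising and 14.7% falling at 6 h. A further 4 genes that the TAIR10.1 table names as UGTs under other symbols were measured, and 1, the anthocyanin xylosyltransferase UF3GT, rose at 78 h (1.40 ± 0.21, adjusted p = 0.000459), with 0 called at 6 h and 0 there at an unadjusted p below 0.05. With the block GT72B1 fell at both harvests (-0.50, adjusted p = 0.0114 at 78 h, and -0.39, 0.0431 at 6 h), and SGT, a sterol glucosyltransferase, rose at 6 h (0.16, adjusted p = 0.0231).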

How the data were processed

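Total RNA was extracted with Trizol and labelled as biotinylated cRNA, per the labels' protocols. The values deposited by the authors were taken as log2 signals, because they run from 3.87 to 14.81 and the base is not stated. They had been normalized before deposit. Not given in the sources used here are the method, the background correction and the software. A normalization that equalises arrays could hide a shift shared by most genes. Of 22810 probe sets, 64 controls were left out and 22746 tested. Genes were taken from the probe annotation, and 3 probe sets that name a UGT together with another gene (UGT73B2 with UGT73B3, UGT89B1, UGT71D1) were not used. Neighbours were read from the TAIR10.1 gene table.

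Group means were modelled in limma 3.58.1 (R 4.3.3) over the 24 arrays together (12 residual degrees of freedom), with Benjamini-Hochberg adjustment over all probe sets and a threshold of 0.05. All adjusted p-values are from limma, and the pipeline was tested on simulated data. Slopes are linear contrasts per 10 °C of cooling.

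Whether the letters pair the arrays was checked on the A minus B differences, which correlated between 0.520 and 0.890 over 66 pairs of groups across probe sets (median 0.669). This pairing led to a further fit with the letter as a block (11 residual degrees of freedom). In that fit the letters differed at 20 of the 46 members, with B above A at 6 of these. The share over all probe sets was not counted. Over all 46 members the absolute difference had a median of 0.0725 and reached 0.860.

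Named genes are AT2G16890, each member past a slope test or the slope difference, those past a slope test with the block and not without it, and the 2 with the smallest slopes. UGT76B1, UGT87A2, UGT72E2, UGT84A1, UGT84A4 and other members set beside these were named after their values were seen. The members, lists and tests were chosen with earlier results of these data known. Alternatives were the block, a filter on the dimmest 25%, cyclic loess, trend and robust moderation, each harvest alone, each letter alone and the omission of each array.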

Additional observations from a re-analysis of the deposited data

Results flagged for a closer look

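The temperature slope of 3 UGT genes differed between the harvests by a test of the difference itself, 78 h minus 6 h, in log2 per 10 °C of cooling. UGT78D3 had a difference of -1.33 ± 0.20 (limma adjusted p = 0.00377), with slopes of 0.30 at 78 h and 1.63 at 6 h. UGT71C5 had a difference of -0.80 ± 0.17 (adjusted p = 0.0266), with slopes of -0.48 at 78 h and 0.32 at 6 h. UGT88A1 had a difference of 0.49 ± 0.12 (adjusted p = 0.0394), with slopes of 0.28 at 78 h and -0.21 at 6 h. These calls were not equally firm. That of UGT88A1 was lost in 16 of 24 omissions of an array, with cyclic loess, with trend and robust moderation, and on the A arrays alone. That of UGT71C5 was lost in 7 of 24 omissions, and that of UGT78D3 on the B arrays alone. With 2 arrays per group, single arrays that stand apart within a group were not looked for.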

How the results depend on the processing

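With the letter as a replicate block, the members called were 11 instead of 7 for the 78 h slope, 9 instead of 3 for the slope difference, 9 instead of 2 for 8 °C against 20 °C at 78 h, 13 instead of 6 for the same at 6 h, and 15 instead of 11 for the 6 h slope. The block ended no call. Over all probe sets it raised calls as well. For the 78 h slope, 5.31% rose and 6.78% fell without it, and 14.4% and 15.1% with it. For the 6 h slope, 4.90% and 6.15% became 12.2% and 14.7%. For the slope difference, 1.41% higher and 1.15% lower became 7.87% and 6.88%. For 8 °C against 20 °C at 78 h, 2.92% higher and 4.44% lower became 10.3% and 12.0%. At 6 h that comparison went from 2.84% and 3.20% to 8.98% and 9.87%. With the 78 h harvest fitted alone, 8 °C against 20 °C was called at 4 members. Shares of all probe sets were counted only for the fits with and without the block. Whether the member counts of the other fits follow those of all probe sets was therefore not tested. Leaving out 1 array gave 4 to 7 members for the 78 h slope, with 4 each without the 8 °C A, the 8 °C B or the 20 °C B array of 78 h. It gave 5 to 11 for the 6 h slope (7 without the 20 °C A and 5 without the 8 °C A array of 6 h), 1 to 4 for the slope difference, 2 to 3 for 8 °C against 20 °C at 78 h and 2 to 8 at 6 h (2 each without the 8 °C A or the 20 °C B array of 6 h). For 17 °C against 20 °C and for the controls, 0 members were called under every alternative run.

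The alternatives other than the omission of an array gave 560 values of single genes. Of these, 492 kept their side of the threshold, 18 lost a call, 50 gained one and 0 changed direction where called. Calls lost there were those of UGT71B1 (6 h slope, adjusted p = 0.0727 with cyclic loess, 0.145 with the harvest alone, 0.179 on B), UGT74B1 (78 h slope, 0.0676 with the harvest alone), UGT74D1 (6 h slope, 0.0578 on B), UGT76C2 (6 h slope, 0.0564 with the harvest alone and 0.120 on A) and UGT84A3 (6 h slope, 0.141 with the harvest alone). UGT88A1 lost the 78 h slope (0.0565 with trend and robust moderation, 0.0751 with the harvest alone, 0.732 on A) and the difference (0.0763 with cyclic loess, 0.0674 with trend and robust moderation, 0.324 on A). UGT78D3 lost the difference on B (0.124), UGT80B1 the 8 °C comparison at 6 h (0.0559 with trend and robust moderation, 0.0535 with the harvest alone) and UGT71C4 the same (0.0684 with the harvest alone). The cause was not tested. Each member has 1 probe set, so the alternative that uses every probe set of a gene was not run. The 14 members among the dimmest 25% are limited by signal.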

Other observations

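Some members had a hump rather than a slope, seen after their values were known and not tested as curvature. UGT87A2 differed from its 20 °C mean at 78 h by 0.28, 0.52, 0.39, 0.11 and -0.17 on the log2 scale at 17, 14, 12, 10 and 8 °C, with both 14 °C arrays (9.39 and 9.43) above both 20 °C arrays (8.84 and 8.94) and both 8 °C arrays (8.79 and 8.65) below them. UGT71B1 at 78 h differed by 0.10, 0.21, 0.28, 0.13 and -0.09 at the same temperatures.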
